A study of Mus musculus with 10 samples.

Results

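Integrins and cadherins are the receptors by which cells hold the extracellular matrix and each other. The table of RNA levels held 49 genes of these families, of 34591 genes in all. These genes were chosen by symbol and not by a cut on measured values, though earlier results of these data were known. They comprised 18 integrin alpha genes, 8 integrin beta genes and 23 classical and type II cadherins with their near relatives, all named Cdh and a number. Levels were read in male mouse embryonic stem cells (mESCs) of the C57/BL6 Bruce-4 line, grown in the naive 2iL medium, which holds LIF and inhibitors of GSK3 and MEK. Every library came from this line and medium. WT cells were compared with cells that carry CRISPR/Cas9 indels in *Dnttip1* (clones D2A7 and D1E6) or in *Elmsan1* (clones E2E8 and E2G7), genes for scaffold subunits of the mitotic deacetylase complex MiDAC, which removes acetyl groups from histones through HDAC1. Each KO line grew from 1 sorted cell and is thus 1 clone, whereas a cloning step is not given for WT. The numbers KO1 and KO2 are assigned to D2A7 and D1E6 in opposite ways in the library names and in the description of the series, so clones are called by their codes. Each of the 5 lines has 2 libraries, 10 in all. The study calls its libraries biological replicates without saying how cultures were split. The p-values thus measure the spread between libraries, and 4 libraries of a knockout stand for only 2 clones.

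An integrin is a pair of an alpha and a beta chain, and the combination sets the ligand: laminin, collagen, RGD-containing matrix proteins such as fibronectin and vitronectin, or receptors on other cells. The beta tail recruits talin and kindlin, which switch the receptor on and tie it to actin. Cadherins bind the same cadherin on the neighbouring cell in the presence of calcium, and their tails hold beta-catenin and p120-type catenins. E-cadherin (*Cdh1*) keeps naive mESCs in compact colonies, and a shift from E-cadherin to N-cadherin (*Cdh2*) accompanies exit towards mesodermal and neural fates.

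The libraries hold from 31098269 to 86463773 fragments, as recovered from the steps of their FPKM (fragments scaled to exon length and to the library total), with the WT libraries the shallowest at 31098269 and 37921195. *Dnttip1* lay at 8.40 FPKM in WT, 4.56 in D2A7, 2.59 in D1E6, 6.58 in E2E8 and 7.70 in E2G7 (means of 2 libraries), and was lower in *Dnttip1* KO versus WT by the rule given below. *Elmsan1*, listed as *C130039O16Rik*, lay at 5.53 FPKM in WT, 8.22 in D2A7, 8.52 in D1E6, 5.01 in E2E8 and 4.69 in E2G7, so its RNA was no check of the *Elmsan1* KO labels. The 9 embryonic stem cell markers examined, among them *Pou5f1*, *Sox2* and *Nanog*, summed to between 2795 and 3705 FPKM in every library. *Dppa5a* alone measured between 1552 and 2294. *Pou5f1* lay at 321 and 294 FPKM in WT and between 238 and 318 in the KO libraries. *Sox2* lay at 194 and 179 against 132 to 148, and *Nanog* at 325 and 324 against 241 to 291. *Zfp42* went the other way, at 67.4 and 69.3 against 82.5 to 108. The 9 fibroblast markers summed to at most 0.926 FPKM, the 7 primitive endoderm markers to at most 1.58 and the 7 measured blood and endothelial markers to at most 1.75, with *Emcn* at 0 throughout, whereas the 5 measured neural markers reached 96.6 FPKM, nearly all of it *Tubb3* and *Nes*. RNA was taken from whole cultures, where fewer cells of a type and less RNA per cell cannot be told apart.

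Few members made up most of the RNA of each family. Averaged over the 10 libraries, 5 members reached 10 FPKM, namely *Cdh1*, *Itgb1*, *Itga6*, *Itgb5* and *Cdh3*. Another 6 lay between 1 and 10 FPKM (*Itgav*, *Itgb7*, *Cdh24*, *Itgb4*, *Itga3* and *Itga5*), 12 between 0.1 and 1, and 26 below 0.1. *Cdh1* took from 87.9% to 90.1% of the cadherin FPKM of a library and *Cdh3* from 6.76% to 7.97%. *Itgb1*, the beta chain with the widest choice of partners, took from 56.7% to 75.5% of the beta FPKM, and *Itga6*, a laminin receptor with beta 1 or beta 4, took from 57.0% to 68.3% of the alpha FPKM. Below 0.1 FPKM in every library were 22 members, and 2 of them, the leukocyte chains *Itgad* and *Itgax*, were at 0 throughout, which allows up to 3 fragments, or between 0.0079 and 0.0219 FPKM for *Itgad*. This limit and the fragment numbers below cover counting error only. The other members below 0.1 everywhere were *Itgam*, *Itga4*, *Itga2*, *Itgb2*, *Itgb6*, *Itgb8* and 14 cadherins, among them VE-cadherin (*Cdh5*) of endothelium, M-cadherin (*Cdh15*) of muscle and T-cadherin (*Cdh13*). They were not tested, and the counts below say nothing of them.

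**Figure D1:**
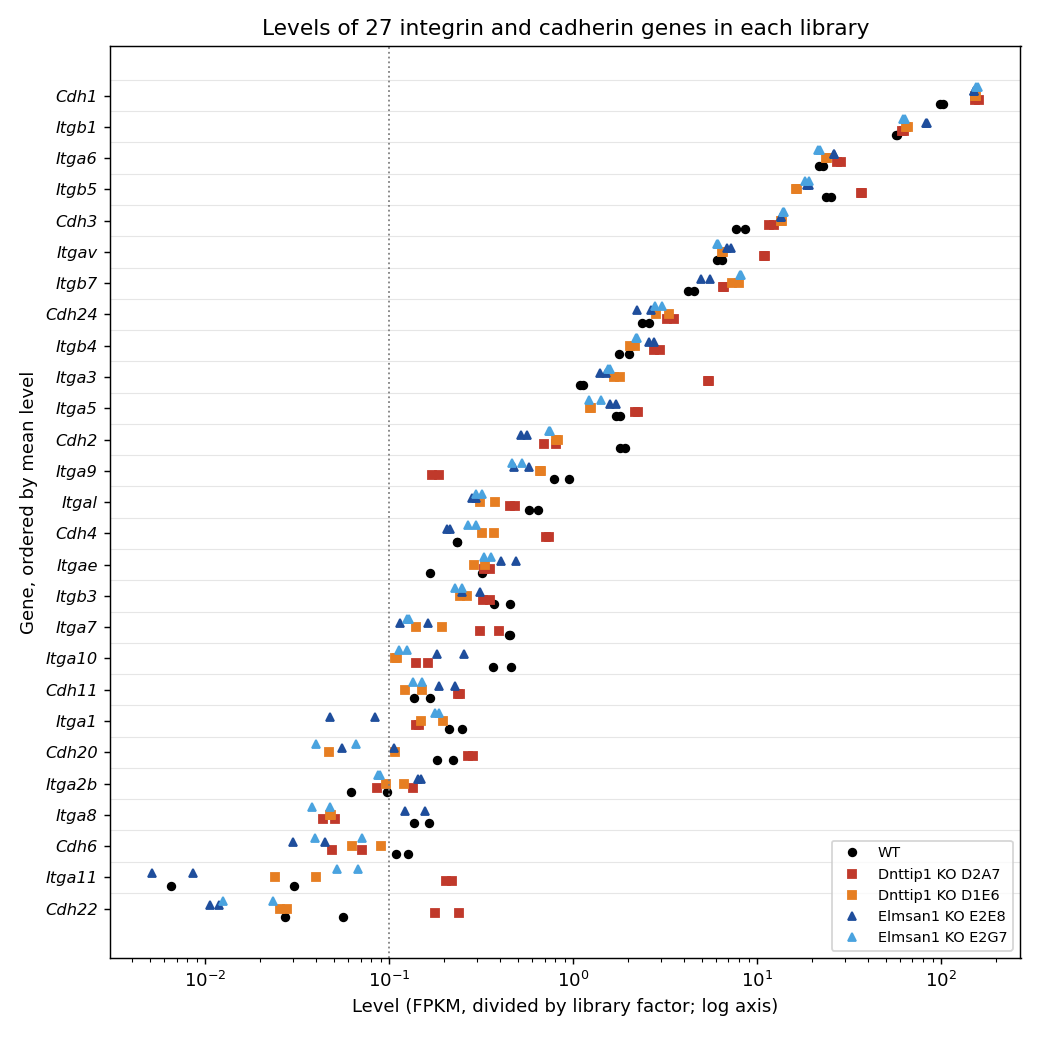
Level of the 27 members that reached 0.1 FPKM in some library, as deposited FPKM divided by a factor per library, on a log axis, with 1 point per library and genes ordered by their mean. *Cdh1* stands at the top between 98.8 and 161 FPKM, and the points of D2A7 (dark red squares) stand apart for *Itgb5*, *Itgav*, *Itga3*, *Itga9*, *Itga11* and *Cdh22*.

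The abundant cadherins were higher in every KO clone, as was chromosome 8 as a whole, on which they lie, while N-cadherin was lower. *Cdh1* (chr8:109127251-109194146, + strand, NCBIM37) measured 102 and 98.8 FPKM in the WT libraries, 154 and 161 in D2A7, 155 and 153 in D1E6, 152 and 152 in E2E8, and 158 and 155 in E2G7. All 8 KO libraries lay above both WT libraries and the clones were close to each other. Its log2 fold change was 0.63 ± 0.046 (SE) in *Dnttip1* KO (limma adjusted p = 0.00331) and 0.62 ± 0.046 in *Elmsan1* KO (adjusted p = 0.00227), or 1.55-fold and 1.54-fold. P-cadherin (*Cdh3*, chr8:109034791-109080808, + strand), the placental cadherin, measured 8.63 and 7.65 FPKM in WT, 11.6 and 12.4 in D2A7, 13.7 and 13.6 in D1E6, 13.5 and 13.5 in E2E8, and 14.0 and 13.8 in E2G7. Again no KO library reached down to WT. *Cdh3* rose by 0.65 ± 0.094 in *Dnttip1* KO (adjusted p = 0.0157) and by 0.75 ± 0.067 in *Elmsan1* KO (adjusted p = 0.00359) on the log2 scale. In *Dnttip1* KO, its fold was under 1.5 without WT replicate 2 or with D2A7 alone.

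N-cadherin (*Cdh2*, chr18:16747386-16967755, - strand) measured 1.79 and 1.90 FPKM in WT, 0.808 and 0.696 in D2A7, 0.829 and 0.805 in D1E6, 0.522 and 0.562 in E2E8, and 0.742 and 0.748 in E2G7. The highest KO library thus lay well under the lower WT library. Its log2 fold change was -1.14 ± 0.13 in *Dnttip1* KO (adjusted p = 0.00759) and -1.40 ± 0.18 in *Elmsan1* KO (adjusted p = 0.00936). The ratio of *Cdh1* to *Cdh2* FPKM was 57.0 and 51.9 in WT and between 187 and 291 in the KO libraries, highest in E2E8. *Cdh1* enters this ratio without removal of the chromosome 8 difference from WT that is given below. *Cdh20*, a type II cadherin, measured 0.183 and 0.221 FPKM in WT, 0.269 and 0.285 in D2A7, 0.108 and 0.0473 in D1E6, 0.0556 and 0.107 in E2E8, and 0.0403 and 0.0663 in E2G7. It fell in *Elmsan1* KO by 0.87 ± 0.23 on the log2 scale (adjusted p = 0.0644, and 0.604 with an estimated correlation within clones, where it was not called), from between 13 and 29 fragments per KO library, and this call was lost without WT replicate 1 or 2, E2E8 replicate 1 or either E2G7 library. In the *Dnttip1* KO the clones lay on opposite sides of WT. The type II cadherin *Cdh24*, at 2.58 and 2.38 FPKM in WT, lay between 2.23 and 3.54 FPKM in the KO libraries and was not called in either knockout.

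Of the beta chains, *Itgb7* was the one called in the pooled *Dnttip1* KO or *Elmsan1* KO versus WT. It pairs with alpha 4 or with alpha E, the latter a receptor for E-cadherin. *Itgb7* (chr15:102046426-102062366, - strand) measured 4.53 and 4.24 FPKM in WT, 6.63 and 6.51 in D2A7, 8.03 and 7.33 in D1E6, 5.55 and 4.96 in E2E8, and 8.20 and 8.06 in E2G7. All KO libraries were above WT, with E2E8 nearest to it. It rose in *Dnttip1* KO by 0.68 ± 0.10 on the log2 scale (limma adjusted p = 0.0170). With D2A7 alone against WT the difference was 0.57, under the fold threshold, and with D1E6 alone it was 0.79 and called. In *Elmsan1* KO the difference was 0.57 ± 0.23 (adjusted p = 0.169), under the fold threshold. *Itgae*, the chain for alpha E, was far less abundant, at 0.167 and 0.319 FPKM in WT and between 0.288 and 0.490 in the KO libraries, and the other partner, *Itga4*, was below 0.1 FPKM in every library.

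*Itgb1* (chr8:131209554-131257100, + strand) measured 57.3 and 57.6 FPKM in WT, 63.0 and 61.3 in D2A7, 64.4 and 66.5 in D1E6, 83.7 and 82.8 in E2E8, and 63.5 and 62.5 in E2G7. E2E8 stood above the rest, and the other KO libraries lay slightly above WT. Relative to the chromosome 8 median of the clone, as given below, *Itgb1* was higher in E2E8 and lower in the other clones. The log2 fold changes of 0.15 ± 0.048 and 0.33 ± 0.14 were not called (adjusted p = 0.110 and 0.193). *Itgb5*, a vitronectin receptor with alpha v, measured 25.2 and 23.9 FPKM in WT, 37.1 and 37.0 in D2A7, 16.3 and 16.6 in D1E6, 18.7 and 19.2 in E2E8, and 18.3 and 19.1 in E2G7. D2A7 was thus above WT and the other 3 clones below it. With each clone fitted against WT on its own, *Itgb5* was called in D2A7 only, 0.59 higher on the log2 scale. In *Elmsan1* KO the difference was -0.38 ± 0.051 (adjusted p = 0.0103), which has a small error but is under the 1.5-fold threshold, and in *Dnttip1* KO the opposite clones gave 0.01 ± 0.41. *Itgb4*, the partner of alpha 6 in hemidesmosomes, lay at 2.02 and 1.78 FPKM in WT and between 2.03 and 2.95 in the KO libraries, and was not called. *Itgb3*, which pairs with alpha v and alpha IIb, lay at 0.373 and 0.456 FPKM in WT and between 0.229 and 0.354 in the KO libraries, and was not called either. *Itgb2*, the only partner of *Itgal*, had at most 3 fragments in any library.

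The alpha chains called in the pooled *Dnttip1* KO or *Elmsan1* KO versus WT all fell, and all were below 1 FPKM. *Itga10*, which forms a collagen receptor with beta 1, fell in both knockouts. It measured 0.463 and 0.368 FPKM in WT, 0.140 and 0.163 in D2A7, 0.107 and 0.110 in D1E6, 0.182 and 0.256 in E2E8, and 0.113 and 0.125 in E2G7. No KO library reached the WT values, and E2E8 came nearest. The log2 fold change was -1.16 ± 0.20 in *Dnttip1* KO (adjusted p = 0.0234) and -0.96 ± 0.27 in *Elmsan1* KO (adjusted p = 0.0714). Both calls were lost (adjusted p = 0.271 and 0.499 with an estimated correlation) when libraries of a clone were allowed to correlate in limma. Between 27 and 90 fragments per library stood behind these values. *Itga7*, a laminin receptor known from muscle, measured 0.446 and 0.454 FPKM in WT, 0.313 and 0.397 in D2A7, 0.140 and 0.193 in D1E6, 0.163 and 0.114 in E2E8, and 0.128 and 0.125 in E2G7. D2A7 kept close to WT while the other clones were far below. *Itga7* fell in *Elmsan1* KO by 1.25 ± 0.18 on the log2 scale (adjusted p = 0.0119, and 0.264 with an estimated correlation, where it was not called), and in *Dnttip1* KO the difference was -0.67 ± 0.32 (adjusted p = 0.244).

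*Itgal*, the alpha chain of the leukocyte receptor LFA-1, measured 0.643 and 0.573 FPKM in WT, 0.481 and 0.453 in D2A7, 0.378 and 0.313 in D1E6, 0.284 and 0.299 in E2E8, and 0.296 and 0.321 in E2G7. It fell in *Elmsan1* KO by 0.82 ± 0.15 (adjusted p = 0.0239, and 0.367 with an estimated correlation, not called). *Itga9*, a receptor for tenascin C and osteopontin with beta 1, measured 0.789 and 0.948 FPKM in WT, 0.171 and 0.188 in D2A7, 0.657 and 0.673 in D1E6, 0.480 and 0.580 in E2E8, and 0.468 and 0.525 in E2G7. All KO libraries were below WT, and D2A7 was far below the rest. In *Elmsan1* KO it fell by 0.66 ± 0.16 (adjusted p = 0.0517, and 0.538 with an estimated correlation, not called), while in *Dnttip1* KO the unequal clones gave -1.06 ± 0.53 (adjusted p = 0.254). *Itga8*, an RGD receptor with beta 1, measured 0.165 and 0.136 FPKM in WT, 0.0509 and 0.0439 in D2A7, 0.0482 and 0.0479 in D1E6, 0.157 and 0.122 in E2E8, and 0.0478 and 0.0382 in E2G7. E2E8 was at the level of WT and the other 3 clones below it. *Itga8* was called lower in *Dnttip1* KO, at -0.76 ± 0.19 on the log2 scale (adjusted p = 0.0607, and 0.531 with an estimated correlation, not called), but it passed the filter through WT alone and so had to differ. *Itga3*, with its values given below, lay above both WT libraries in all 8 KO libraries. Its log2 differences were 1.40 ± 0.56 in *Dnttip1* KO (adjusted p = 0.176) and 0.42 ± 0.12 in *Elmsan1* KO (adjusted p = 0.0722), neither called. Against WT, D2A7 alone (2.20) and D1E6 alone (0.60) were called. The most abundant alpha chains were not called in the pooled comparisons. *Itga6* lay at 22.9 and 21.8 FPKM in WT, 28.4 and 27.4 in D2A7, 23.9 and 23.9 in D1E6, 26.2 and 26.3 in E2E8, and 21.9 and 21.5 in E2G7. *Itgav* lay at 6.07 and 6.42 FPKM in WT, 11.0 and 10.9 in D2A7, 6.55 and 6.41 in D1E6, 7.24 and 6.84 in E2E8, and 6.03 and 6.12 in E2G7. *Itgav* and the low *Itga11* were called higher than WT in D2A7 alone, the latter having passed the filter through that clone.

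**Figure D2:**
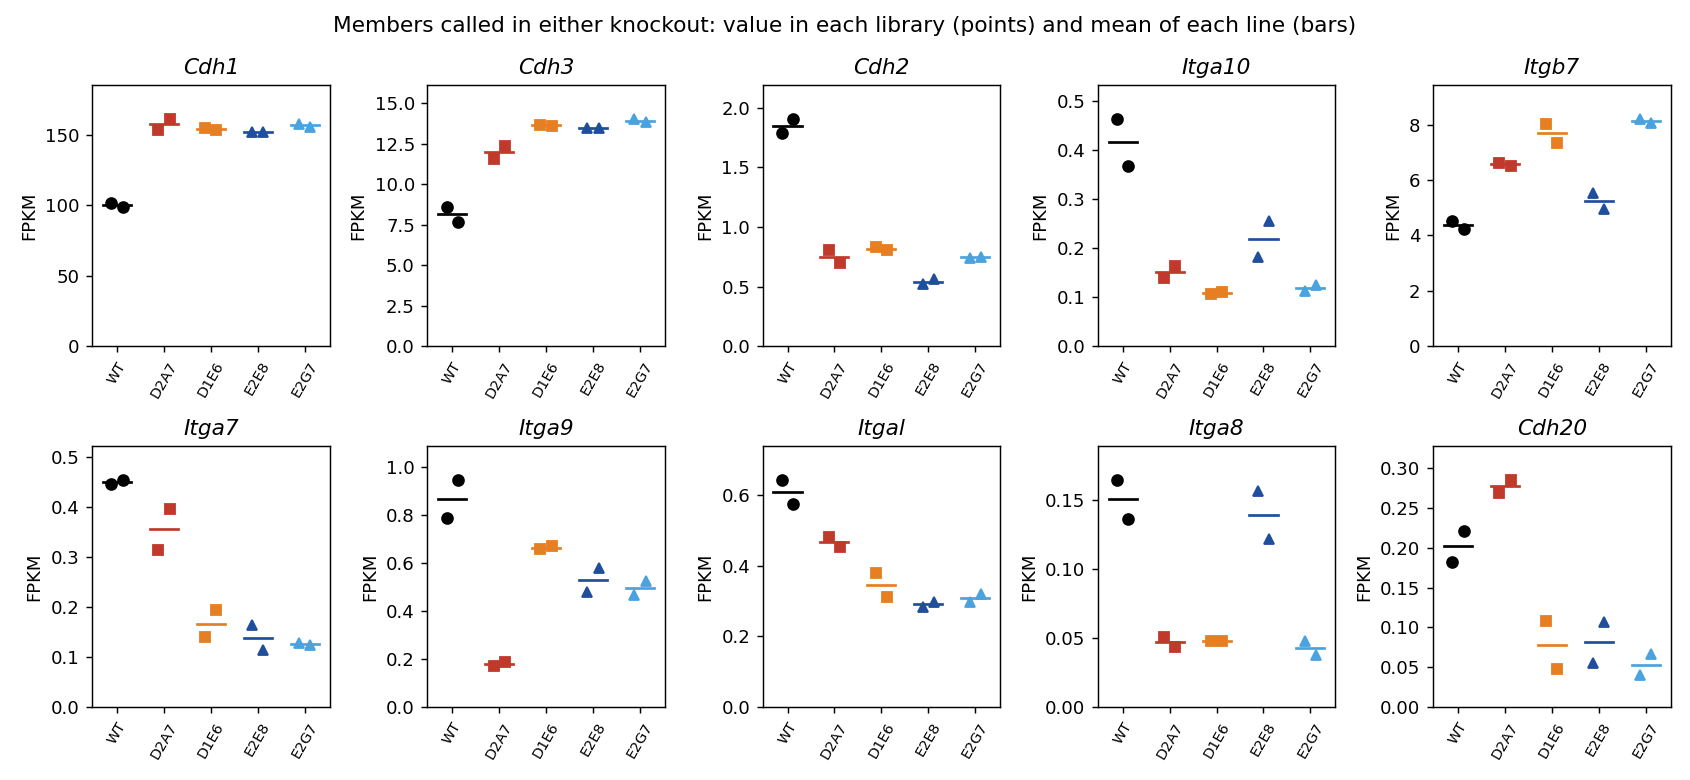
FPKM divided by the library factor for the 10 members called in either knockout versus WT, each panel from 0, with 1 point per library and a bar at the mean of each line. All KO points of *Cdh1*, *Cdh3* and *Itgb7* lie above the WT points and all KO points of *Cdh2*, *Itga10*, *Itga7*, *Itga9* and *Itgal* below them, whereas *Itga8* in E2E8 and *Cdh20* in D2A7 do not.

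The promoters of the called genes are shown for the letters that precede their starts. The table of RefSeq promoters (build GRCm38.p6) matched 31 of the 49 members by symbol with 35 windows. It held 5 of the 10 members called in a pooled knockout versus WT. The 250 bases before the start are printed 5′ to 3′ on the strand of the gene. *Cdh1*, *Cdh2*, *Cdh3*, *Itga7* and *Itgal* are named only. Capitals mark the E-box letters CACCTG or its reverse complement CAGGTG, the core bound by SNAI and ZEB repressors of *Cdh1*.
*Itgb7*, chr15:102231936-102232185, - strand: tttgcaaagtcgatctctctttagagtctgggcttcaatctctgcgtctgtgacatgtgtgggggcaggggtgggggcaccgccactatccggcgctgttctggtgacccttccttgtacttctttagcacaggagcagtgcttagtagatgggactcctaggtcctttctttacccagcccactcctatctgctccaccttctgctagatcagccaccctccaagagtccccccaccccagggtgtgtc
*Itga10*, chr3:96645334-96645583, + strand: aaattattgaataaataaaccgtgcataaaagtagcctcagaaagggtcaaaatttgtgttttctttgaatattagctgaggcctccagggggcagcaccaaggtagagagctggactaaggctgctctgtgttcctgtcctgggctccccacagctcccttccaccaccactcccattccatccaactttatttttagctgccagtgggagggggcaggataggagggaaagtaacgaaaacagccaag
*Itga8*, chr2:12301945-12302194, - strand: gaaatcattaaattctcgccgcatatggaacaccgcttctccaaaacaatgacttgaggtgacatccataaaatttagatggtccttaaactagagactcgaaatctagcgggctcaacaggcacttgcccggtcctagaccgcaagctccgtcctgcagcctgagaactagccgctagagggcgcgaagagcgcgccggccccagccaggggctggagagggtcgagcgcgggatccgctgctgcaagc
*Itga9*, chr9:118711442-118711691, + strand: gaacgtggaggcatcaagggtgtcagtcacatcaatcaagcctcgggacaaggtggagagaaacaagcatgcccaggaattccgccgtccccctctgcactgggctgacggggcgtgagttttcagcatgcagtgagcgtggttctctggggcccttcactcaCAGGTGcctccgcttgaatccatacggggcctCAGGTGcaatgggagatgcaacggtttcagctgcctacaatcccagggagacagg
*Cdh20*, chr1:104768270-104768519, + strand: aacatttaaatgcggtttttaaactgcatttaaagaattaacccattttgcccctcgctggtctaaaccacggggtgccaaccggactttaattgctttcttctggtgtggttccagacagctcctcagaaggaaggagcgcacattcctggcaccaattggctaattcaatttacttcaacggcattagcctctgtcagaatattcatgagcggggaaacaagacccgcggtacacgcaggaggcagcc
The *Itga9* window held 2 such E-boxes, which start 87 and 55 bases before the RefSeq start of that window. The other 4 windows printed held none. A RefSeq start can lie inside a gene, and the starts used here were not compared with the NCBIM37 gene positions. Of the 35 member windows, 8 (22.9%) held an E-box in these letters, against 17.2% of all 32851 windows of the same length. CpG dinucleotides numbered 2 in the *Itga10* window, 5 in that of *Itgb7*, 10 in those of *Itga9* and *Cdh20* and 18 in that of *Itga8*, with a median of 10 over member windows and of 6 over all windows. A match in letters is a description and not a binding site.

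A member was called where its fold change was at least 1.5 and its unadjusted p under 0.01, the rule of the study, in a fit over all genes with at least 0.1 FPKM in 2 or more libraries. Fold changes are on the scale of log2(FPKM + 0.1), which understates those of genes below about 1 FPKM. In *Dnttip1* KO versus WT, 27 members were tested and 6 were called (22.2%), 3 higher and 3 lower, while 6.50% of all genes tested were called, 3.26% higher and 3.24% lower. Reaching 0.1 FPKM in KO or in WT libraries alone were 5 of these members, *Itga8*, *Itga11*, *Itga2b*, *Cdh6* and *Cdh22*, of which *Itga8* was called. Without them 5 of 22 were called, 3 higher and 2 lower. Median log2 fold changes were 0.18 for the members and 0.02 for all genes tested. In *Elmsan1* KO versus WT, 25 members were tested and 8 were called (32.0%), 2 higher and 6 lower, against 6.42% of all genes, 2.74% higher and 3.68% lower. Without *Itga2b* and *Cdh6*, which reached 0.1 FPKM on 1 side alone, 8 of 23 were called. The medians were 0.04 and 0.00. *Cdh1*, *Cdh2*, *Cdh3* and *Itga10* were called in both knockouts, which share their WT libraries. Of the 27 members at 0.1 FPKM in at least 2 of the 10 libraries, 6 had all KO libraries above both WT libraries (12.2% of all genes did) and 8 had all of them below (12.1% of all genes did). Among the 23 members that reached 0.1 FPKM in KO and in WT libraries alike, these numbers were 6 (12.1% of such genes) and 7 (12.5%), as *Cdh6* dropped out.

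Clones bear on these counts. With the correlation of libraries within clones estimated in limma, *Cdh1*, *Cdh2*, *Cdh3* and *Itgb7* were called in *Dnttip1* KO, with adjusted p-values of 0.0493, 0.114, 0.140 and 0.131, and *Cdh1*, *Cdh2* and *Cdh3* in *Elmsan1* KO, with 0.0485, 0.107 and 0.0984. The other calls were lost, with the p-values given beside them. The count of 8 in *Elmsan1* KO was 4 without WT replicate 1 and 5 without WT replicate 2, E2E8 replicate 1, E2G7 replicate 1 or E2G7 replicate 2. In each of these cases *Cdh20*, *Itga9* and *Itga10* were no longer called, and without WT replicate 1 neither was *Itgal*. In *Dnttip1* KO, *Itga10* was not called without WT replicate 1, nor *Itga8* without any 1 of the KO libraries. Without either WT library *Itga8* no longer passed the filter.

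**Figure D3:**
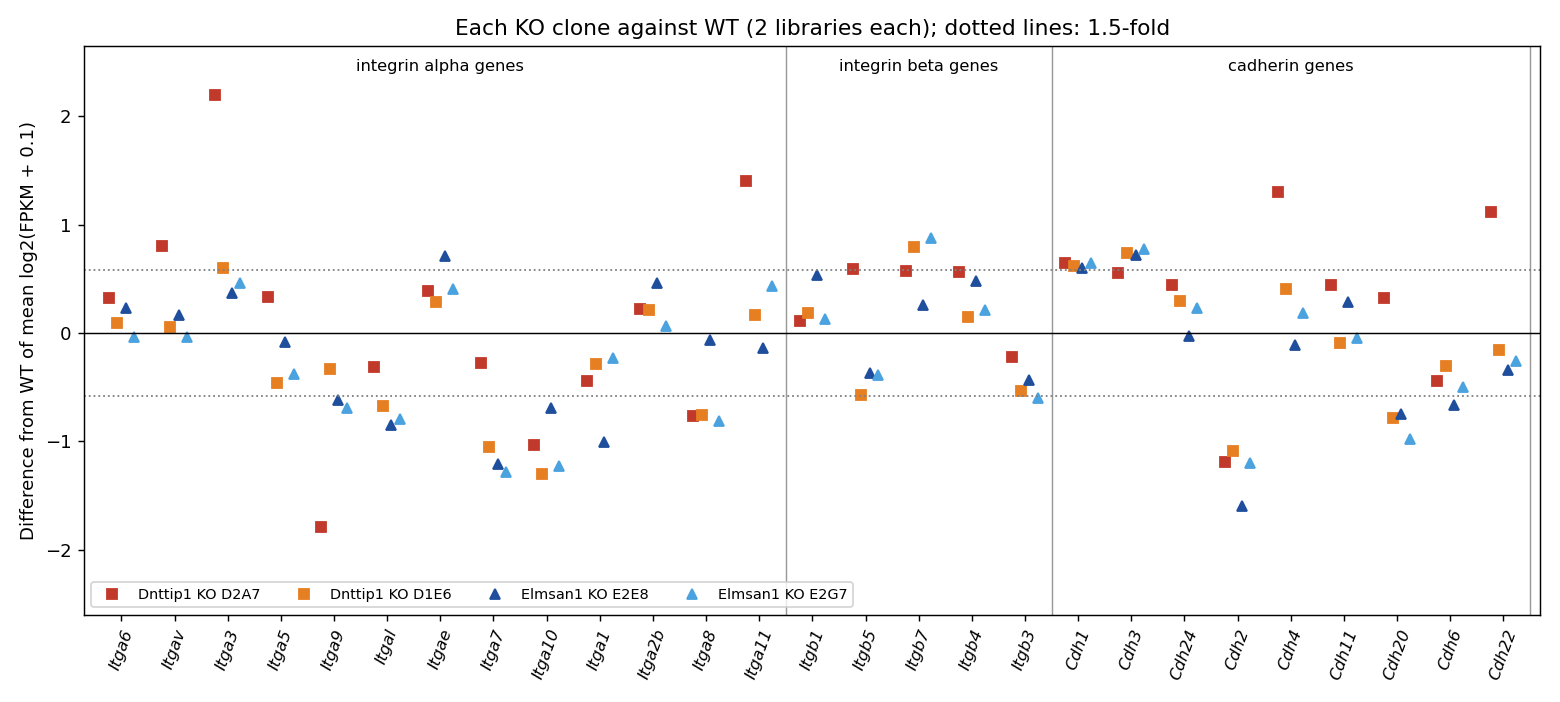
Difference from WT of the mean log2(FPKM + 0.1) in each KO clone (2 libraries each) for the 27 members above 0.1 FPKM in some library, by family, with dotted lines at 1.5-fold. The 4 clones lie together for *Cdh1*, *Cdh3* and *Cdh2*, whereas D2A7 lies apart for *Itga3*, *Itga9*, *Itga11*, *Cdh4*, *Cdh20* and *Cdh22*.

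*Cdh1* and *Cdh3* are neighbours on chromosome 8, 46442 bases apart, and *Itgb1* lies 22015407 bases further on. The whole of this chromosome was higher in the KO clones. Over 615 genes, the median log2 ratio to WT was 0.36 in D2A7, 0.36 in D1E6, 0.34 in E2E8 and 0.36 in E2G7, with from 89.3% to 91.5% of the genes higher, and for the 40 genes within 1 Mb of *Cdh1* it lay between 0.29 and 0.38. Chromosome 6, which holds none of the members tested, had medians of 0.43 in D1E6, 0.39 in E2E8 and 0.30 in E2G7 but -0.08 in D2A7, and the medians of the other chromosomes lay between -0.10 and 0.04. Of the 9 members on chromosome 8, 4 were tested: *Cdh1*, *Cdh3*, *Itgb1* and *Cdh11*, a type II cadherin of mesenchyme.

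After each clone was centred so that chromosomes 6 and 8 had the median of WT, *Cdh1* was 0.27 ± 0.044 higher in *Dnttip1* KO (limma adjusted p = 0.0242) and 0.27 ± 0.044 higher in *Elmsan1* KO (adjusted p = 0.0206). *Cdh3* was 0.29 ± 0.094 higher in *Dnttip1* KO (adjusted p = 0.125) and 0.40 ± 0.068 higher in *Elmsan1* KO (adjusted p = 0.0235). All were under 1.5-fold, so neither gene was called. *Itgb1* came to -0.21 ± 0.047 in *Dnttip1* KO, where its sign thus turned. In *Elmsan1* KO it came to -0.01 ± 0.15, within its error of no change. On this scale the calls were 4 in *Dnttip1* KO, 1 higher and 3 lower, and 6 in *Elmsan1* KO, all lower. The share of all genes called after centring was not taken, so these counts have no background to stand beside. *Cdh2*, *Itgb7* and the called alpha chains lie on other chromosomes.

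**Figure D4:**
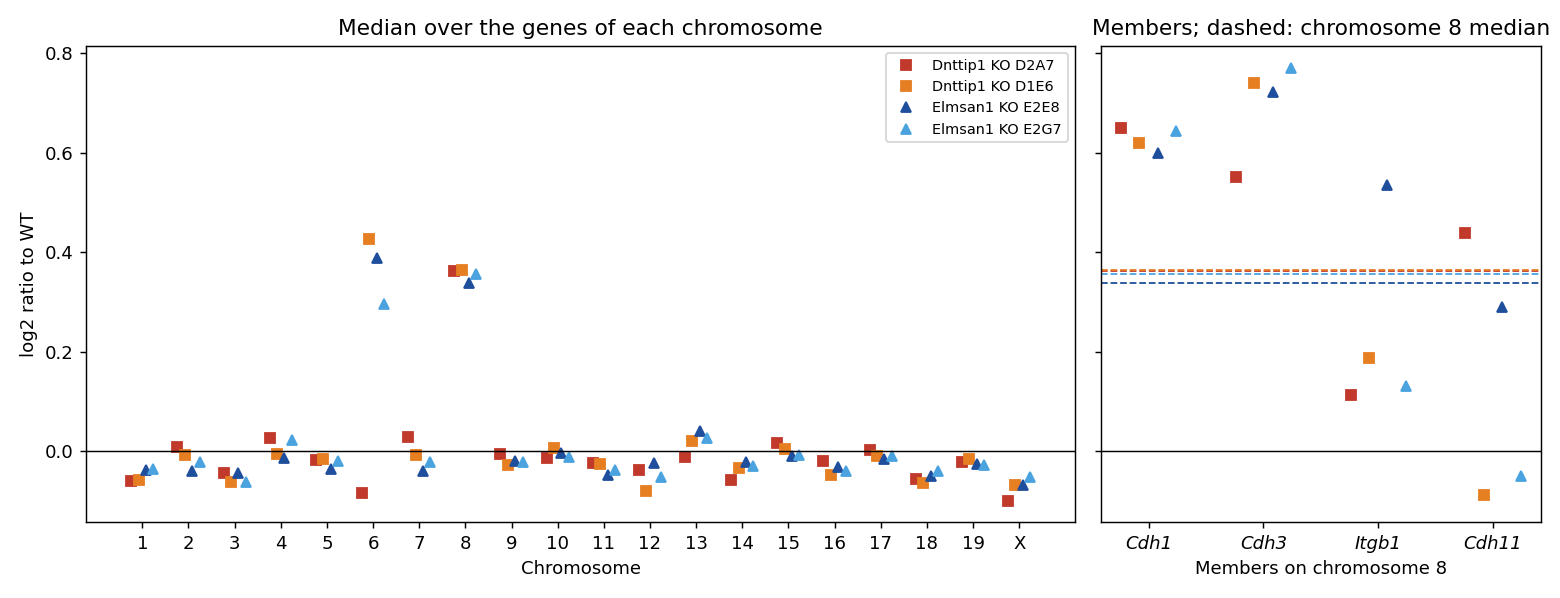
Left, median log2 ratio to WT over the genes of each chromosome in each KO clone. Right, the same ratio for the 4 members tested on chromosome 8, with dashed lines at the chromosome 8 median of each clone (0.34 to 0.36), where *Cdh1* and *Cdh3* lie above the lines in all 4 clones and *Itgb1* below them in all but E2E8.

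The knockouts were also compared with each other. Of 26 members tested, limma called 0, where 1.52% of all genes were called. At an unadjusted p under 0.05 stood 3 members, *Cdh4*, *Itga3* and *Itga7*, with log2 differences of *Dnttip1* KO minus *Elmsan1* KO of 0.82 ± 0.26, 0.98 ± 0.39 and 0.58 ± 0.25 and adjusted p-values of 0.296, 0.301 and 0.310. With voom on the recovered fragments, 1 was called. Without D1E6 replicate 1, 2 were called, and without D1E6 replicate 2, 1 was called. *Cdh1* differed by 0.01 ± 0.042, *Cdh3* by -0.10 ± 0.066 and *Cdh2* by 0.26 ± 0.15.

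The clones of the *Dnttip1* KO differed from each other in 9 members. D2A7 exceeded D1E6 in 8 members and lay below it in 1, of 25 tested (36.0%), where 12.9% of all genes were called, 9.20% higher and 3.73% lower. Without *Itga11* and *Cdh22*, which passed the filter through D2A7 alone, 7 of 23 were called, 6 higher and 1 lower. *Itga3*, a laminin receptor with beta 1, measured 5.49 and 5.39 FPKM in D2A7 but 1.66 and 1.81 in D1E6, 1.13 and 1.08 in WT, and between 1.41 and 1.59 in the *Elmsan1* KO clones. D2A7 stood far above the other lines, by 1.60 ± 0.068 over D1E6 on the log2 scale (adjusted p = 0.000489). *Itgb5* and *Itgav*, which form 1 receptor for vitronectin, exceeded D1E6 by 1.17 ± 0.029 (adjusted p = 0.000443) and 0.75 ± 0.039 (adjusted p = 0.000570), with the values given above. *Itga5*, the fibronectin receptor with beta 1, measured 2.19 and 2.25 FPKM in D2A7, 1.25 and 1.23 in D1E6, 1.70 and 1.79 in WT, and between 1.22 and 1.71 in the *Elmsan1* KO clones, a difference between the *Dnttip1* KO clones of 0.79 ± 0.076 (adjusted p = 0.00229). *Itga9* was lower in D2A7 by 1.45 ± 0.14 (adjusted p = 0.00239).

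Low members differed too. R-cadherin (*Cdh4*) measured 0.740 and 0.715 FPKM in D2A7 and 0.320 and 0.371 in D1E6, beside 0.235 and 0.235 in WT. *Itga11*, a collagen receptor with beta 1, measured 0.219 and 0.205 in D2A7 and at most 0.0678 in every other library, and *Cdh22*, a type II cadherin, measured 0.239 and 0.177 in D2A7 and at most 0.0565 elsewhere. These 2 genes had to differ, since they passed the filter through D2A7 alone, and their values are a description. *Cdh4* and *Cdh20* exceeded D1E6 by 0.90 and 1.11 on the log2 scale (limma adjusted p = 0.00775 and 0.0230). The count of 9 was 5 without D2A7 replicate 1 or 2, where *Cdh4* and *Cdh20* lost their call and *Itga11* and *Cdh22* no longer passed the filter.

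Some markers of other cells were higher in D2A7 than in every other line, and others were not. Of the 9 fibroblast markers, *Thy1* measured 0.315 and 0.443 FPKM in D2A7 and *Pdgfrb* 0.458 and 0.339, while 6 were below 0.1 FPKM in every library. The list summed to its highest, 0.926 FPKM, in a D2A7 library and to between 0.198 and 0.315 outside the *Dnttip1* KO. Of the 7 primitive endoderm markers, *Gata4* measured 0.950 and 0.898 in D2A7 and between 0.343 and 0.494 elsewhere. *Dab2* measured 0.169 and 0.197 in D2A7 and at most 0.135 elsewhere. *Sox7* went the other way, at 0.0439 and 0.0512 in D2A7 against 0.182 and 0.158 in WT, but was lower still in E2E8, at 0.0318 and 0.0179. *Gata6* and *Foxa2* were below both WT libraries in D2A7. *Gata6* in D2A7, at 0.0655 and 0.0705, was nevertheless above the other KO libraries, which reached at most 0.0347. Of the neural markers, *Nes* measured 12.4 and 12.9 in D2A7 against between 4.14 and 9.22 elsewhere, and *Sox1* 0.801 and 0.865 against between 0.278 and 0.453. *Tubb3*, at 70.5 and 72.6, lay within the range of the other lines, while *Neurod1*, at 0.0471 and 0.0206, was below WT, at 0.0611 and 0.0766, and *Pax6* was below 0.1 FPKM in every library. Of the blood and endothelial markers, *Gata1* measured 0.350 and 0.423 in D2A7 against at most 0.127 elsewhere, and *Coro1a* 0.404 and 0.533 against between 0.665 and 0.962. Their part in the D2A7 values was not tested.

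The *Elmsan1* KO clones differed in 1 of 23 members tested, where 13.7% of all genes were called. *Itgb7* was lower in E2E8 than in E2G7 by 0.62 ± 0.064 on the log2 scale (adjusted p = 0.00221), a call lost without E2E8 replicate 2. *Itgb1* was higher in E2E8 by 0.40 ± 0.027 (adjusted p = 0.000913) and *Itga6* by 0.27 ± 0.028 (adjusted p = 0.00225), both under 1.5-fold. Against WT, each clone on its own gave 10 calls of 26 members in D2A7 (14.7% of all genes), 7 of 24 in D1E6 (9.63%), 6 of 25 in E2E8 (15.0%) and 9 of 24 in E2G7 (9.55%). Without the members that reached 0.1 FPKM in the clone or in WT alone, among them the called *Itga11* and *Cdh22* in D2A7, *Itga1* in E2E8 and *Cdh20* in E2G7, the calls were 8 of 22 in D2A7, 7 of 22 in D1E6, 5 of 22 in E2E8 and 8 of 21 in E2G7.

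**Figure D5:**
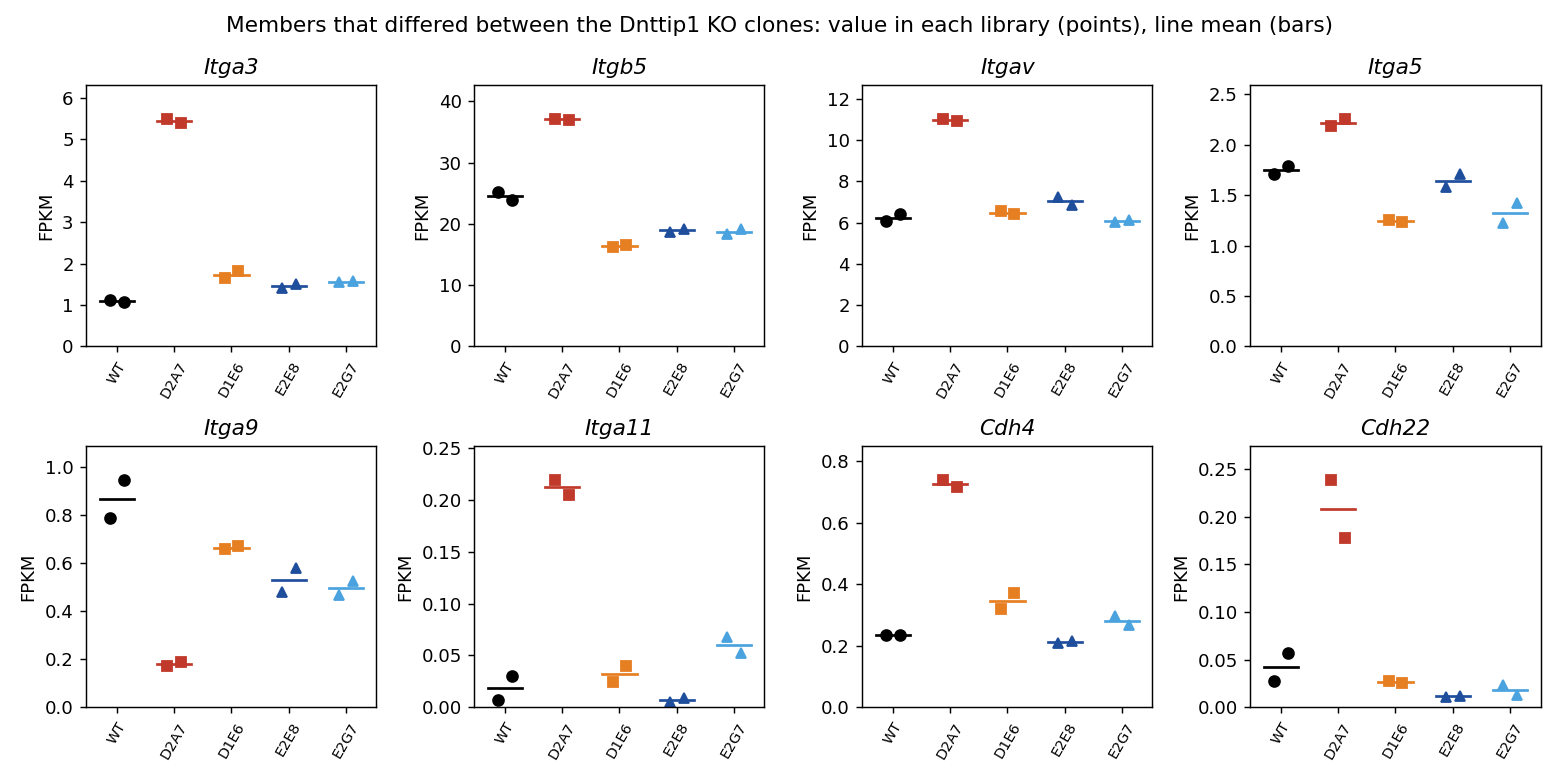
FPKM divided by the library factor for 8 of the members that differed between the *Dnttip1* KO clones, each panel from 0, with 1 point per library and a bar at the mean of each line. The D2A7 points are the highest of all lines in every panel but that of *Itga9*, where they are the lowest at 0.171 and 0.188 FPKM.

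The proteins that work with integrins and cadherins were read from lists. Of 29 integrin adaptors and signalling genes, 28 were tested in *Dnttip1* KO with 2 called higher and 2 lower, and 27 in *Elmsan1* KO with 2 lower. Counts in this and the following lists stand beside 6.50% of all genes called in *Dnttip1* KO and 6.42% in *Elmsan1* KO. Kindlin-1 (*Fermt1*), an integrin activator, measured 2.19 and 2.37 FPKM in WT and between 0.189 and 0.701 in the KO libraries, and fell by 2.68 ± 0.25 in *Dnttip1* KO (limma adjusted p = 0.00526) and by 1.76 ± 0.16 in *Elmsan1* KO (adjusted p = 0.00342) on the log2 scale. This exceeded the change of every member called in the pooled *Dnttip1* KO or *Elmsan1* KO versus WT. *Lims2* (PINCH-2), which binds integrin-linked kinase, fell by 1.23 and 1.37 (adjusted p = 0.0211 and 0.0470). In *Dnttip1* KO, beta-parvin (*Parvb*) rose by 0.67 and tensin 1 (*Tns1*) by 1.44 (adjusted p = 0.0132 and 0.0446). The most abundant adaptor was the tetraspanin *Cd9* on chromosome 6, at 229 FPKM in WT, 211 in D2A7, 243 in D1E6, 318 in E2E8 and 224 in E2G7, not called.

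Of 23 integrin ligands other than collagens and laminins, 18 were tested in either knockout, with 1 higher and 2 lower in *Dnttip1* KO and 1 higher and 4 lower in *Elmsan1* KO. In *Dnttip1* KO the matricellular protein *Cyr61* rose by 1.14 (adjusted p = 0.0620), and *Ltbp1* and fibrillin 2 (*Fbn2*) fell by 1.11 and 1.14 (adjusted p = 0.0302 and 0.0326). In *Elmsan1* KO *Edil3*, a ligand of alpha v integrins, fell by 1.00, *Icam2*, a ligand of LFA-1, by 1.27, and *Ecm1* by 0.61 (adjusted p = 0.0221, 0.0261 and 0.0644). *Tgfb1* and *Nid1* were also called in *Elmsan1* KO, among them the 1 higher, and their values are not given here. Osteopontin (*Spp1*) was the most abundant, at 514 FPKM in WT and between 372 and 527 in the clones, not called.

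Of 24 catenins and cadherin partners, 21 were tested, with 2 called higher in *Dnttip1* KO and 3 in *Elmsan1* KO. *Arvcf*, a p120-type catenin, measured 6.57 and 6.11 FPKM in WT and between 9.22 and 13.4 in the KO libraries, and rose by 0.95 and 0.63 (adjusted p = 0.00509 and 0.00726). Nectin-1 (*Pvrl1*) rose by 1.25 and 0.88 (adjusted p = 0.00669 and 0.0261), and plakophilin 3 (*Pkp3*) by 0.82 in *Elmsan1* KO (adjusted p = 0.0544). Beta-catenin (*Ctnnb1*), which helps to link cadherins to the actin cytoskeleton, was the most abundant, at 169 FPKM in WT and between 161 and 186 in the clones. Its log2 fold changes were 0.06 ± 0.071 and -0.04 ± 0.050.

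Of 38 desmosomal and atypical cadherins and their partners, 36 were in the table and 14 and 13 were tested. *Fat2* fell in both knockouts, by 1.30 and 1.12 (adjusted p = 0.00925 and 0.0427). *Fat1*, on chromosome 8, rose in *Dnttip1* KO by 0.62 (adjusted p = 0.00509), and desmoplakin (*Dsp*) rose in *Elmsan1* KO by 0.75 (adjusted p = 0.00726). The most abundant was *Clstn1*, at 43.7 FPKM in WT and between 50.3 and 69.3 in the clones, not called. Of 29 regulators of cadherin switching and epithelial genes, 26 were tested, with 4 higher in *Dnttip1* KO and 7 higher and 1 lower in *Elmsan1* KO. Those that rose in both were the adhesion molecule *Epcam*, by 0.65 and 0.99 (adjusted p = 0.0208 and 0.0130), and the tight junction genes *Cldn6*, by 0.94 and 0.89 (adjusted p = 0.0454 and 0.00923), and *Cldn7*, by 0.68 and 1.13 (adjusted p = 0.0622 and 0.0168). *Grhl3*, an epithelial transcription factor, rose in *Dnttip1* KO by 0.66 (adjusted p = 0.0234). In *Elmsan1* KO *Cldn4*, the most abundant of this list at 86.4 FPKM in WT, rose by 0.70 (adjusted p = 0.0641), and *Snai3*, a relative of the repressor *Snai1* on chromosome 8, by 1.86 (adjusted p = 0.0249). *Zeb1*, *Esrp1* and *Grhl1* were also called in *Elmsan1* KO, among them the 1 lower, and their values are not given here.

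Over these lists, median log2 fold changes in *Dnttip1* KO were 0.06 for adaptors, 0.13 for ligands, 0.06 for catenins and partners, 0.29 for desmosomal and atypical cadherins and 0.14 for regulators, against 0.02 for all genes tested. In *Elmsan1* KO they were 0.12, -0.06, -0.01, 0.07 and -0.01, against 0.00. Both knockouts share their WT libraries, so these values are not independent of each other.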

How the data were processed

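RNA-seq of 10 mESC libraries was read from the FPKM table that the authors deposited. Per the methods, stranded total RNA was sequenced from both ends, aligned to NCBIM37 and counted with HTSeq, and the authors computed FPKM from the counts. The authors' own tests used edgeR 3.16.5 and voom in R 3.3.1 and were not used. Several Illumina instruments are named with none given per library, so a sequencing batch could not be fitted. Of the gene identifiers, 97.2% and all 49 members matched GENCODE vM1, which gave positions and exon lengths. For 98.1% to 98.4% of values under 100 fragments, FPKM times exon length was a whole multiple of 1 step per library (within 0.02), which gave fragments and library totals.

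A factor per library, from 0.965 to 1.01, was taken as the median ratio over 11270 genes that no library had below 1 FPKM, and divided out. A gene entered a comparison if 2 of its libraries reached 0.1 FPKM. The values log2(FPKM + 0.1) were fitted in limma (version 3.58.1, R 4.3.3) with a variance trend, and two-sided p-values were adjusted by Benjamini-Hochberg over the 17435 (*Dnttip1* KO) or 17205 (*Elmsan1* KO) genes that entered. Samples were grouped by the clone in their names. Every member called in a pooled knockout versus WT, or at 5 FPKM or more on average, is given by library. Of each list, up to 6 called genes, those with the lowest mean p, and the most abundant are given. Members and lists were chosen with earlier results of these data known. The fits were tested on simulated data: all of 200 genes given a log2 change of 1.5 were called in each of the 2 knockout comparisons (17233 and 16999 genes), as were 0.751% and 0.881% of unchanged genes. The simulated libraries varied independently, with no clone effect, and the changed genes had at least 1 FPKM in 2 libraries. In the data the estimated correlation within clones was 0.704 and 0.768. These rates thus do not describe calls under such correlation, and recovery below 1 FPKM was not tested. Alternatives covered the pseudocount, filter, scaling, variance model, clones, pairing, threshold, chromosome centring, voom on fragments and each library left out. Figures used Python 3.11.15 and matplotlib 3.10.9.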

Additional observations from a re-analysis of the deposited data

Results flagged for a closer look

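Among the 4 libraries of a knockout, 1 library stood apart from the other 3 for 3 members, by the gap to its nearest neighbour as a share of the whole range on the log2(FPKM + 0.1) scale. For 4 independent libraries, chance alone would set about 1 in 20 such groups apart. Here each group is 2 clones of 2 libraries, so that rate does not strictly hold. In each knockout 27 members were examined. *Cdh2* was lowest in D2A7 replicate 2 among the *Dnttip1* KO libraries (0.696 FPKM, a gap of 0.83 of the range), *Itga1* was highest in D1E6 replicate 1 (0.196 FPKM, 0.848), and *Cdh22* was highest in E2G7 replicate 1 among the *Elmsan1* KO libraries (0.0235 FPKM, 0.849). The *Cdh22* value rests on 7 fragments, against 3, 3 and 4 in the other *Elmsan1* KO libraries.

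The clones of 1 knockout differed, by a test of the difference itself in limma, for 10 members. D2A7 exceeded D1E6 on the log2 scale by 1.60 for *Itga3*, 1.27 for *Cdh22*, 1.24 for *Itga11*, 1.17 for *Itgb5*, 1.11 for *Cdh20*, 0.90 for *Cdh4*, 0.79 for *Itga5* and 0.75 for *Itgav*, and the difference was -1.45 for *Itga9*. *Cdh22* and *Itga11* passed the filter through D2A7 alone. For *Itgb7* the difference of E2E8 minus E2G7 was -0.62.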

How the results depend on the processing

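No member called in a comparison changed sign under any alternative run. In *Dnttip1* KO versus WT the count of 6 became 10 with D2A7 alone, of which 3 were among the 6, and 7 with D1E6 alone. It became 4 with a pseudocount of 1, with genes averaging 1 FPKM or more, with the correlation within clones and with chromosomes 6 and 8 centred. With a threshold on the adjusted p, or with any KO library left out, it was 5. In *Elmsan1* KO versus WT the count of 8 became 3 with a pseudocount of 1, with genes averaging 1 FPKM or more and with the correlation within clones, and 5 with a threshold on the adjusted p, and ranged from 4 to 8 with a library left out. Between the knockouts, the count of 0 became 1 with all 10 libraries in a single fit and 1 with voom, and ranged from 0 to 2 with a library left out. Between D2A7 and D1E6, the count of 9 became 3 with a pseudocount of 1 and 4 with genes averaging 1 FPKM or more, and ranged from 5 to 7 with a library left out. Between E2E8 and E2G7, the count of 1 became 0 with a pseudocount of 1, 3 without a filter, with quantile normalization, without a variance trend, with all libraries in a single fit and with a threshold on the adjusted p, and 4 with voom, and was 0 or 1 with a library left out. The higher filter leaves fewer genes to test; the cause of the other changes was not tested. Same-numbered libraries had correlations of their deviations from -0.193 to 0.335, the highest between D2A7 and E2E8. No pairing was fitted in the main tests, and whether some of these libraries were handled together is not known. A replicate block gave 5, 6, 0, 8 and 1 calls in the order above. Where a WT library was left out, the 1 that remained was assumed to vary like the KO libraries. Depth limits the members under about 0.2 FPKM, such as *Cdh22* with 3 fragments in a library.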
